A study of Rattus norvegicus with 58 samples.

Results

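The set described here holds 28 genes, all with a median read count that had at least doubled in gastrocnemius of rats between 8 and 18 months and a triceps brachii median at 24 months that was less than 1.5 times that at 8 months. They were picked from 32545 genes by their measured values, and the triceps condition put no limit on a fall or on the 18-month value. Each count was divided by a median-of-ratios size factor of its library, which makes libraries of unequal depth comparable (called a normalised count from here on), and 1 was added to each group median. A gene entered the set when its 24-month gastrocnemius median was 50 or more, its 18/8-month ratio in gastrocnemius 2 or more and its 24/8-month ratio in triceps below 1.5. The level alone was met by 11413 genes, the level and the gastrocnemius rise by 110, and all 3 conditions by 29, of which Hdac4, a histone deacetylase known from denervated muscle, was left out by name. Musk and Kcnn3 were to be left out too, and they did not meet the triceps condition. A symbol was at hand for 15 of the 28 genes, and the other 13 are known here by their Ensembl identifier.

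The libraries came from 29 male Wistar rats, 10 aged 8 months, 10 aged 18 months and 9 aged 24 months, and each rat gave 1 library of gastrocnemius, a calf muscle of the hindlimb, and 1 of triceps brachii, a forelimb muscle. Each age was a separate set of animals, so a change with age is a difference between rats. The study set the 2 muscles side by side because the hindlimb wastes with age in these animals more than the forelimb does. RNA was taken from whole muscle, and in such bulk samples fewer cells of a type and less RNA per cell cannot be told apart. The 58 libraries held 11176076 to 72297573 reads, with a median of 21249321, and 7 muscle fibre genes summed to 7355 to 61116 CPM (reads scaled to a common library total) in each. One 24-month gastrocnemius library, that of rat 47, stood apart from the other 8 of its group. Its Chrna1 count was 484 against 2178 to 5987 in those 8.

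A muscle fibre that loses its nerve switches on genes that are normally kept silent away from the synapse, among them Chrna1, the alpha subunit of the acetylcholine receptor, and Musk, the receptor kinase that gathers these receptors under the nerve ending. Muscle size is set by a balance of signals, with myostatin and activins restraining growth and follistatin binding them both. The 14 members with a symbol of known function span several such roles. Mir675 and Cdkn1c belong to imprinted regions. Fst, Crhr2, Pde7a and Adap2 encode a secreted inhibitor, a receptor and 2 regulators of signalling inside the cell. Dclk1, Vash2 and Tnnt2 act on microtubules or thin filaments, and Col19a1 is a collagen. Scd2 and Pla2g4e make or modify lipids, Sec1 belongs to the fucosyltransferases, and Gstt4 to the glutathione S-transferases. AABR07068327.1 has only the name of a sequenced clone.

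Promoter sequences are shown for Chrna1 and for the 5 members with a window whose counts followed Chrna1 between gastrocnemius libraries of the same age (slopes given further on). Each window runs from 250 bases before to 50 bases after a RefSeq start in the assembly GRCr8, which is not the build the reads were aligned to. Capitals mark CANNTG, the E-box core that myogenic transcription factors are known to bind, on either strand. The windows lie at chr3:78877304-78877603, minus strand, (Chrna1), chr1:105288746-105289045, minus strand, (Sec1), chr2:141782634-141782933, plus strand, (Dclk1), chr10:65635740-65636039, plus strand, (Adap2), chr9:34518208-34518507, minus strand, (Col19a1) and chr13:49818873-49819172, plus strand, (Tnnt2, the first of 2 starts).
Chrna1: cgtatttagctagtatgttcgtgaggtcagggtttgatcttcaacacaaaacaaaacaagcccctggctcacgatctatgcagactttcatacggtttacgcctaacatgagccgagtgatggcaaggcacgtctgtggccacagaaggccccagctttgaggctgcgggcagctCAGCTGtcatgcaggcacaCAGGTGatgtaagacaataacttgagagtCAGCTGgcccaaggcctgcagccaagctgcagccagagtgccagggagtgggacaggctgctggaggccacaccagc
Sec1: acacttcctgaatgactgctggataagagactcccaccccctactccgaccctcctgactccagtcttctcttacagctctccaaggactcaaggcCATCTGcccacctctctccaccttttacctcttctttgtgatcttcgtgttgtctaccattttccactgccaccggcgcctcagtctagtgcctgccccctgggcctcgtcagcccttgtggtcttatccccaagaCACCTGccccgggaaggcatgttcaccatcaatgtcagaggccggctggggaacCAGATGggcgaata
Dclk1: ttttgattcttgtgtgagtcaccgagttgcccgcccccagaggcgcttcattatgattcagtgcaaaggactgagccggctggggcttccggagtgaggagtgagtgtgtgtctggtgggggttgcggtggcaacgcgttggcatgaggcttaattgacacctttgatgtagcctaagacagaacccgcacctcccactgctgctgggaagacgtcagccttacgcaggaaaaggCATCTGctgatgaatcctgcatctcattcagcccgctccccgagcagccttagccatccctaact
Adap2: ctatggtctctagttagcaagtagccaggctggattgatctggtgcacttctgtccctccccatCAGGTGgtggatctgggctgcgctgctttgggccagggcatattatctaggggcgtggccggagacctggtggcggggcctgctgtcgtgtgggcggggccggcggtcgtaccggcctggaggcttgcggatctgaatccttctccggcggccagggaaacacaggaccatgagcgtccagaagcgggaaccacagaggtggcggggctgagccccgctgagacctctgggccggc
Tnnt2: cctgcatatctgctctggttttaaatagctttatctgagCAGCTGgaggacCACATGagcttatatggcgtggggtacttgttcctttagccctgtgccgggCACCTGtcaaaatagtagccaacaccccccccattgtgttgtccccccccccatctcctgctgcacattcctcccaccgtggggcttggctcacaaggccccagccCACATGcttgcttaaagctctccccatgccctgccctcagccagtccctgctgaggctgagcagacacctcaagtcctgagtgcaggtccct
Col19a1: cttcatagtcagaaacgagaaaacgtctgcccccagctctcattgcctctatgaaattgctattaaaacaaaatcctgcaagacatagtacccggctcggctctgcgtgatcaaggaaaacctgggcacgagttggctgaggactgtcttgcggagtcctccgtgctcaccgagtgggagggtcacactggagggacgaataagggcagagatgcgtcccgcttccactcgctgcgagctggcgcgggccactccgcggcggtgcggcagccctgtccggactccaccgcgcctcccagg
The Chrna1 window held 3 CANNTG, 2 of them CAGCTG. Sec1 held 3, Tnnt2 held 4, Dclk1 and Adap2 held 1 each, and Col19a1 held none. The table of promoters covered 10 of the 15 members with a symbol, with 15 windows, and 10 of the 15 held a CANNTG, against 72.1% of all 33469 windows of this length. CAGCTG stood in 3 of the 15 and in 15.1% of all windows. CACCTG, which like CAGCTG is a form of CANNTG, stood in 4 of the 15 and in 18.8% of all windows. Dclk1 also held 2 matches to TGANTCA, found in 7.33% of all windows. A match is a run of letters and says nothing of binding.

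The rule fixed that all 28 ratios rose in gastrocnemius from 8 to 18 months, and their sizes are given as a description with no test. The 18/8-month ratio ran from 2.01 (Adap2) to 4.91 (ENSRNOG00000055769), with a median of 2.21. The rise went on in most of them, since 24 of the 28 medians were higher at 24 than at 18 months, and the 24/8-month ratio ran from 1.56 to 15.5 with a median of 3.71. In triceps the 18/8-month ratio had a median of 1.17 and ran from 0.579 (Col19a1) to 1.64 (ENSRNOG00000026087). At 8 months the gastrocnemius median was above the triceps median for 11 of the 28 genes, with a median ratio of 0.926. It was above for 26 genes at 18 months, with a median ratio of 2.00, and for 27 genes at 24 months, with a median ratio of 3.21. The rule favoured genes with such a shift between the muscles, so it too is a description.

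**Figure D1:**
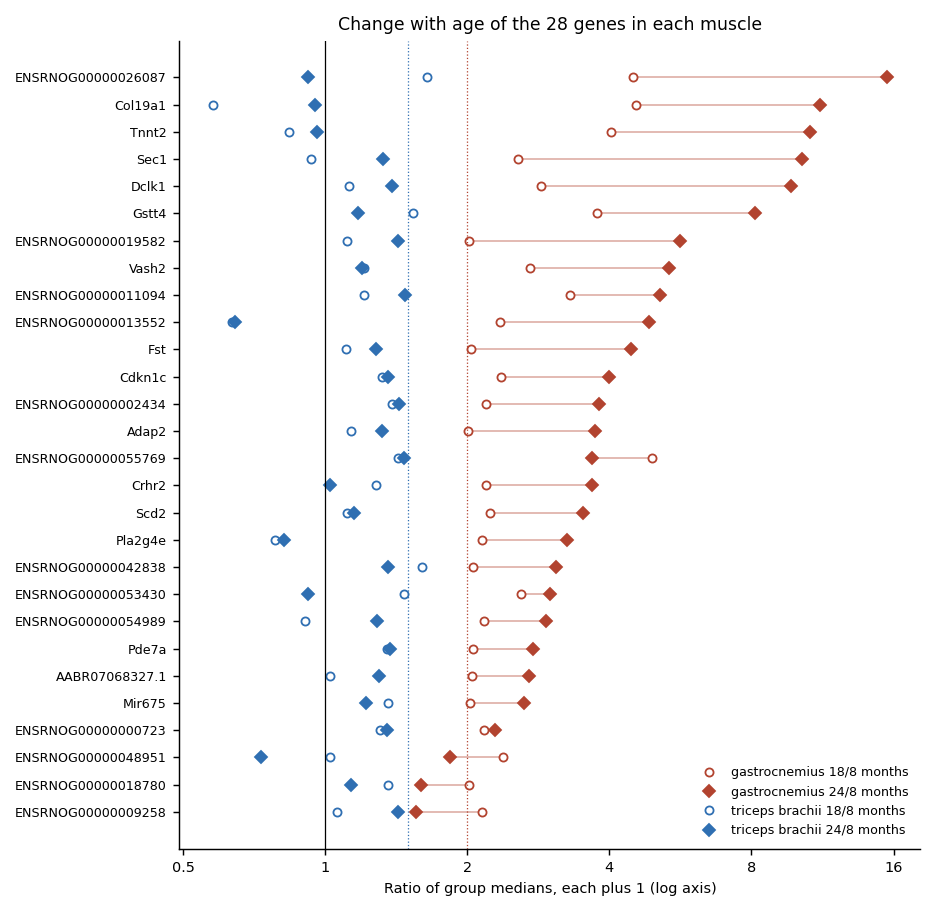
Ratio of group medians (each plus 1, log axis) for the 28 genes, with gastrocnemius in red, triceps brachii in blue, 18/8 months as open circles and 24/8 months as filled diamonds. The dotted lines mark the thresholds of 2 for gastrocnemius at 18/8 months and 1.5 for triceps at 24/8 months, and 24 of the 28 red diamonds lie to the right of their circle.

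Genes lay close to each threshold on both sides. The 24-month gastrocnemius medians nearest to 50 were 50.4 (ENSRNOG00000055769) and 68.0 (ENSRNOG00000009258) inside it, and 48.5 (Fndc3c1) and 47.8 (AABR07027575.1) outside it. The 18/8-month ratios nearest to 2 were 2.010 (Adap2) and 2.015 (ENSRNOG00000019582) inside, and 1.991 (Erbb2, a neuregulin receptor subunit) and 1.988 (ENSRNOG00000008030) outside. For the triceps ratio the nearest were 1.48 (ENSRNOG00000011094) and 1.47 (ENSRNOG00000055769) inside, and 1.55 (Hebp2) and 1.58 (Cd28, a co-stimulatory receptor on T cells) outside.

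Mir675 is the gene whose counts were highest in the set, though counts are not divided by gene length and so do not order the genes by level. Its hairpin lies inside the span of H19 in the RefSeq annotation of GRCr8. H19 is a long noncoding RNA, imprinted and abundant in developing muscle, and the libraries were made from polyadenylated RNA. These counts therefore do not measure the mature microRNAs, which are shown with their seed (bases 2 to 8) in capitals because the gene is named for them.
rno-miR-675-5p: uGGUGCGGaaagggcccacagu
rno-miR-675-3p: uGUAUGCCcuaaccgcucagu
Mir675 had 11549.9 to 25943 (median 15077) normalised counts in 8-month gastrocnemius, 13312 to 66842 (median 30622) at 18 months and 14253 to 78448 (median 39781) at 24 months. Its triceps values were 13350.4 to 35392 (median 17103) at 8 months, 16719.8 to 35889 (median 23197) at 18 months and 12517 to 37082 (median 20886) at 24 months. The 8-month and 18-month gastrocnemius libraries overlapped, and so did the 3 triceps groups. The log2 fold change from 8 to 18 months was 0.95 ± 0.22 (SE) in gastrocnemius and 0.33 ± 0.22 (SE) in triceps.

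Cdkn1c encodes p57, an imprinted inhibitor of cyclin-dependent kinases that holds cells out of division. It was one of 4 members in which every 18-month gastrocnemius library lay above every 8-month one, which held for 0.288% of all 14947 genes tested. Gastrocnemius libraries held 81.4 to 151 (median 121) normalised counts at 8 months, 171 to 666 (median 287) at 18 months and 405 to 746 (median 486) at 24 months. Triceps libraries held 71.5 to 159 (median 107), 89.1 to 197 (median 142) and 103 to 321 (median 146) at the same ages. The log2 fold change from 8 to 18 months was 1.38 ± 0.19 (SE) in gastrocnemius and 0.38 ± 0.19 (SE) in triceps. From 8 to 24 months it was 2.14 ± 0.19 (SE) and 0.73 ± 0.19 (SE), so the triceps change was smaller in size and of the same sign.

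Fst encodes follistatin, the secreted protein that binds myostatin and activins. It lay at 66.2 to 106 (median 93.1) normalised counts in 8-month gastrocnemius, 95.7 to 423 (median 191) at 18 months and 283 to 700.1 (median 416) at 24 months. All 9 of the 24-month libraries were above all 10 of the 8-month ones, while the 18-month libraries overlapped both. In triceps Fst stood at 46.9 to 127 (median 82.5), 22.7 to 176 (median 91.5) and 65.1 to 180.4 (median 106) at the 3 ages, and the groups overlapped. Gastrocnemius gave a log2 fold change of 1.35 ± 0.26 (SE) from 8 to 18 months and 2.34 ± 0.26 (SE) from 8 to 24 months, against 0.23 ± 0.26 (SE) and 0.41 ± 0.27 (SE) in triceps.

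Crhr2 encodes the receptor for urocortins, which raises cyclic AMP in the cell. Counts in gastrocnemius were 189 to 693 (median 208) at 8 months, 192 to 1036 (median 456) at 18 months and 457 to 1251 (median 768) at 24 months. One 8-month library, that of rat 1, was above the 18-month median at 693, and the next highest was 368. In triceps the values were 269 to 530.1 (median 341), 198 to 537 (median 437) and 283 to 494 (median 349), with no order among the ages. Crhr2 was 0.612 times as high in gastrocnemius as in triceps at 8 months, by the ratio of the medians with 1 added, and 2.20 times as high at 24 months.

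Pde7a encodes a phosphodiesterase that breaks down cyclic AMP, the messenger that Crhr2 raises. It had 135 to 386 (median 199.6) normalised counts in gastrocnemius at 8 months, 233 to 832 (median 412) at 18 months and 250.03 to 703 (median 552) at 24 months. Triceps values were 144 to 451 (median 212), 218 to 593 (median 286) and 203 to 485 (median 291). The ages overlapped in both muscles. Adap2, a GTPase-activating protein for Arf proteins at the membrane, went from 44.1 to 86.0 (median 66.1) in 8-month gastrocnemius to 35.2 to 258 (median 134) at 18 months and 114 to 607 (median 249.5) at 24 months. The triceps counts of Adap2 were 38.6 to 86.8 (median 52.1), 19.8 to 76.5 (median 59.3) and 48.1 to 102 (median 69.1). At 18 months the lowest Adap2 library was below every 8-month one and the highest was far above their range, while all 9 libraries at 24 months were above the 8-month range.

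Dclk1 encodes a kinase that binds and steadies microtubules. It lay at 138 to 353 (median 180.5) normalised counts in gastrocnemius at 8 months, at 308 to 1604 (median 518) at 18 months and at 377 to 3367 (median 1764) at 24 months. Triceps stayed at 139 to 343 (median 188), 93.6 to 251 (median 210.4) and 149 to 472 (median 259.7). Every 24-month gastrocnemius library was above every 8-month one, and in triceps the 18-month range lay within or below that of 8 months. The log2 fold change from 8 to 24 months was 2.92 ± 0.29 (SE) in gastrocnemius and 0.35 ± 0.29 (SE) in triceps.

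Vash2 encodes vasohibin 2, which removes the last tyrosine from tubulin and is known as a regulator of vessel growth. Its gastrocnemius counts were 295 to 632 (median 371) at 8 months, 542 to 1513 (median 1010.0) at 18 months and 959 to 3339 (median 1988) at 24 months. The triceps counts were 233 to 1032 (median 420.5), 343 to 729 (median 507) and 277 to 1236 (median 504). The groups at 8 and 24 months did not overlap in gastrocnemius and overlapped over most of their range in triceps.

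Tnnt2 encodes the troponin T of heart and of developing skeletal muscle. Few reads came from it at 8 months, with 6.90 to 76.1 (median 30.5) normalised counts in gastrocnemius, and more with 18.1 to 204 (median 126) at 18 months and 100.3 to 1336 (median 333) at 24 months. Triceps libraries had 5.53 to 73.0 (median 20.3) at 8 months, 0 to 55.6 (median 16.9) at 18 months and 2.63 to 165 (median 19.5) at 24 months. The medians of triceps hardly differed between the ages while single libraries differed widely, and in gastrocnemius the 8-month and 24-month groups did not overlap.

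Col19a1 encodes collagen type XIX, a minor collagen of basement membrane zones. Its gastrocnemius libraries held 5.05 to 25.4 (median 14.0) normalised counts at 8 months, 26.1 to 156 (median 67.4) at 18 months and 42.8 to 623 (median 167) at 24 months. In triceps they held 4.22 to 29.9 (median 19.3), 3.07 to 24.1 (median 10.7) and 5.67 to 56.2 (median 18.3). Both older gastrocnemius groups lay wholly above the 8-month group, and the triceps groups overlapped. The log2 fold change from 8 to 24 months was 4.11 ± 0.41 (SE) in gastrocnemius, the highest of the 28, and 0.31 ± 0.42 (SE) in triceps.

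Scd2 encodes a stearoyl-CoA desaturase, which puts a double bond into saturated fatty acids. It lay at 554 to 2952 (median 971) normalised counts in gastrocnemius at 8 months, 1685 to 3937 (median 2174) at 18 months and 1169.9 to 4945 (median 3414) at 24 months, and the groups overlapped. In triceps it lay at 664 to 1815 (median 941), 600.4 to 1919 (median 1047) and 761 to 1567 (median 1083). Pla2g4e encodes a cytosolic phospholipase A2 that moves acyl chains between lipids. Its values were 22.7 to 52.9 (median 35.6) in gastrocnemius at 8 months, 23.2 to 151 (median 77.5) at 18 months and 57.5 to 149.7 (median 118) at 24 months. In triceps, where Pla2g4e began higher, they were 39.6 to 109 (median 65.9), 17.3 to 85.8 (median 51.3) and 22.4 to 81.6 (median 53.7).

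**Figure D2:**
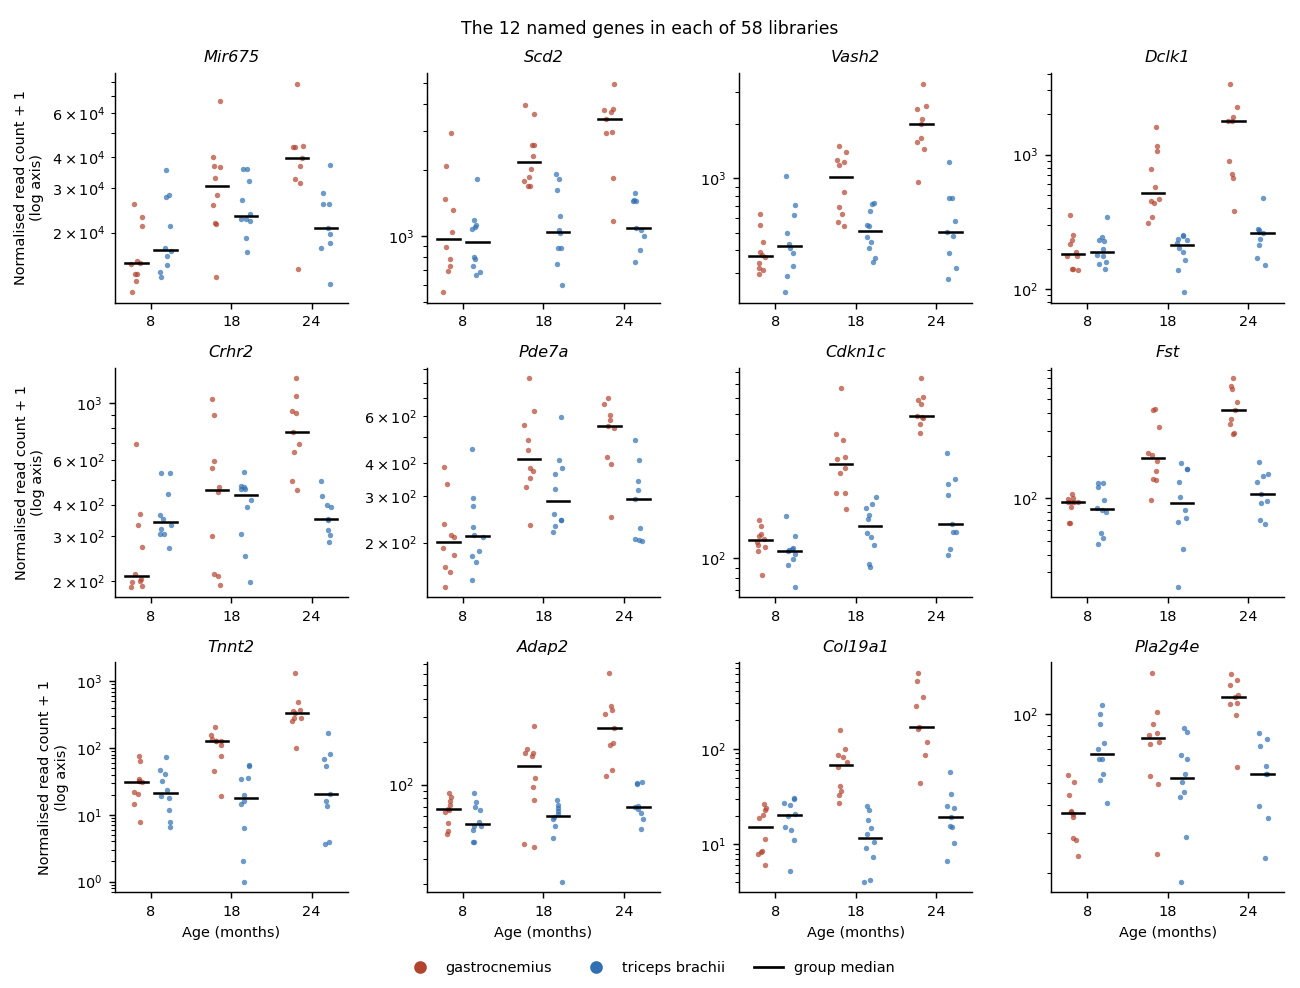
Normalised read count plus 1 (log axis, a separate scale in each panel) of the 12 members with a symbol and the highest 24-month gastrocnemius medians, by age in months, with 1 point per library (10, 10 and 9 rats) and a bar at the group median. Red gastrocnemius points climb with age in each panel and blue triceps medians stay below 1.5 times the 8-month median at 24 months, as the rule required.

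The other members with a symbol had lower counts. Sec1, a fucosyltransferase gene, had a gastrocnemius median of 6.51 at 8 months, 18.2 at 18 months and 76.1 at 24 months, with 10 of 10 libraries at 18 months and 9 of 9 at 24 months above every 8-month library. The triceps medians of Sec1 were 14.3, 13.2 and 19.2. Gstt4, a glutathione S-transferase, had gastrocnemius medians of 8.16, 33.5 and 73.6 and triceps medians of 17.8, 27.97 and 21.1. AABR07068327.1 had gastrocnemius medians of 40.8, 84.7 and 112 and triceps medians of 32.0, 32.8 and 41.9. Gstt4 and Scd2 have close relatives in the genome, and reads that fitted several places equally well had been removed before counting, so their counts could be too low.

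Among the 13 members without a symbol, ENSRNOG00000026087 differed most between the muscles. Gastrocnemius libraries held 33.1 to 1622 (median 316) normalised counts at 8 months, 499 to 11709 (median 1424) at 18 months and 865 to 11654 (median 4901) at 24 months. In triceps the values were 2.73 to 209.5 (median 14.0), 0 to 46.2 (median 23.7) and 0 to 1375 (median 12.8), and the highest of them, in rat 50, stood far above the 47.8 of the next 24-month library. With 1 added to each median, gastrocnemius was 21.1 times triceps at 8 months and 355 times at 24 months. ENSRNOG00000002434 had 194 to 795 (median 334) in gastrocnemius at 8 months, 438 to 2697 (median 732) at 18 months and 511 to 1997 (median 1276) at 24 months. Its triceps values were 173 to 565 (median 327), 213 to 1178 (median 453) and 272 to 1376 (median 468), so the groups overlapped in both muscles.

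Fits across all 14947 genes with 20 reads or more in at least 1 library put these differences beside those of other genes. From 8 to 18 months in gastrocnemius, 24 of the 28 members were higher at an adjusted p under 0.05 (edgeR quasi-likelihood test, Benjamini-Hochberg), and 3.41% of all genes tested were. From 8 to 24 months 25 of the 28 were higher, against 22.6% of all genes, and from 18 to 24 months 10 were, against 8.8%. In triceps 1 member, Cdkn1c, was higher from 8 to 24 months, against 2.08%, and none from 18 to 24 months, against 0.181%. The rule chose the genes on these groups, so nothing is read from these counts. The median log2 fold change of the 28 genes was 1.25 from 8 to 18 months in gastrocnemius, beside 0.01 over all genes tested, and one gene, ENSRNOG00000013552, had a fitted fold change of the other sign (-0.79 ± 0.75), with 1 library at 8 months (rat 8) at 16365 counts against a median of 235. With the rat as a block, the change from 8 to 18 months was smaller in triceps than in gastrocnemius for 4 members (Col19a1, Dclk1, Pla2g4e and Sec1), against 0.281% of genes lower. From 8 to 24 months it was smaller for 23 members, against 5.69%.

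The groups were also set against each other library by library. From 8 to 18 months in gastrocnemius, 4 of the 28 members had no overlap (Cdkn1c, Col19a1, Sec1 and ENSRNOG00000011094), and 0.288% of all genes tested lay wholly higher in the same way. From 8 to 24 months it was 10 members, against 3.31%, and from 18 to 24 months none, against 0.0468%. In triceps no member lay wholly higher at 18 than at 8 months, against 0.00669%, or at 24 than at 8 months, against 0.0201%. The rats of an age did not hold equally many raised members. Counting for each rat the genes above every 8-month library of that muscle, 18-month gastrocnemius had 7 (rat 19) to 22 (rat 20) of 28, with a median of 16.5. At 24 months it had 12 (rat 47) to 24 (rats 46, 49 and 50), with a median of 21. Rat 19 had the lowest Chrna1 count of the 18-month gastrocnemius libraries at 275, and rat 20 had the highest at 2926. The order did not hold throughout, since rat 14 had 20 raised members at a Chrna1 count of 567 and rat 17 had 17 at 599, while rat 16 had 13 at 1114. The rule used these libraries, so the numbers of raised members are a description. Triceps libraries had 2 to 11 such genes at 18 months and 1 to 16 at 24 months, and the 16 belonged to rat 50. The share of all genes raised in this way was not counted for each rat. Nothing is therefore read from the size of these numbers in either muscle.

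**Figure D3:**
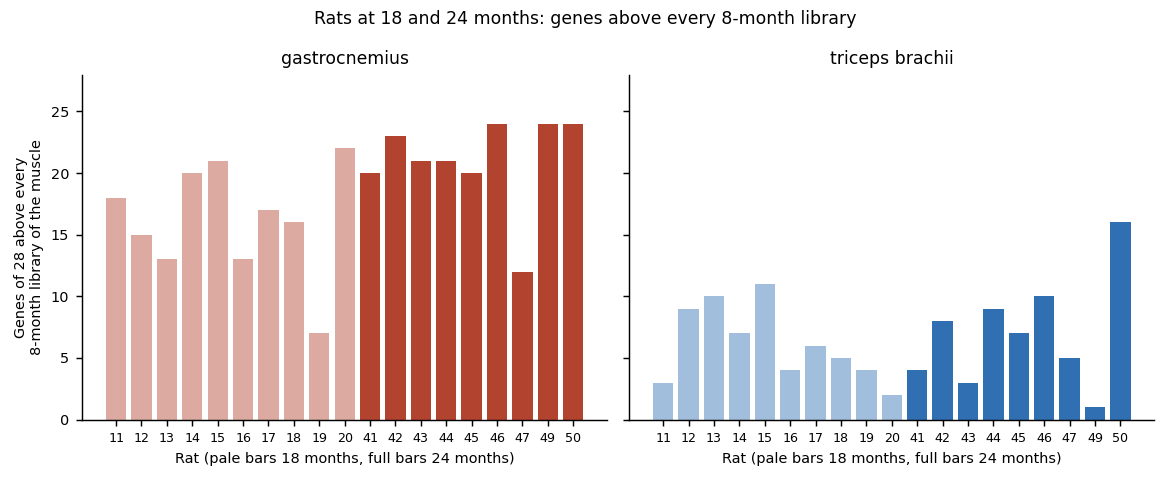
Number of the 28 genes whose normalised count was above that of every 8-month library of the same muscle, 1 bar per rat, at 18 months (pale) and 24 months (full). Gastrocnemius bars run from 7 to 24 and triceps bars from 1 to 16, and rats 19 and 47 have the shortest gastrocnemius bars of their ages. The share of all genes raised in this way was not counted for each rat.

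Triceps between 8 and 18 months gave a comparison in which the 18-month triceps libraries had played no part in the choice of genes, although the 8-month triceps libraries had. The 18-month triceps libraries also came from the same rats as the 18-month gastrocnemius libraries, which the rule used (mean correlation of their deviations 0.17). The comparison is therefore not fully independent of the choice. None of the 28 members passed the edgeR test at an adjusted p under 0.05, and 0.0468% of all genes did in either direction. At an unadjusted p under 0.05 there were 5 members (Cdkn1c, Pde7a, Gstt4, ENSRNOG00000000723 and ENSRNOG00000042838), all with higher counts at 18 months, and 5.43% of all genes. DESeq2 and limma voom called no member either, with 6 and 3 at an unadjusted p under 0.05, and edgeR without rat 6 had 3. The median log2 fold change of the 28 was 0.24, beside 0.00 over all genes, and 18 of the 28 were positive, against 51.3% of all genes. That median was 0.16 with limma voom, and it fell to 0.12 without rat 12 and 0.15 without rat 17. The lowest adjusted p was 0.299, for ENSRNOG00000000723 (0.81 ± 0.23). Cdkn1c stood at 0.38 ± 0.19 (SE) with an adjusted p of 0.910, Pde7a at 0.47 ± 0.21 (SE) with 0.868 and Gstt4 at 1.36 ± 0.52 (SE) with 0.744 in the same edgeR test. A p that misses the threshold does not show that triceps did not change, and the standard errors of these 4 genes ran from 0.19 to 0.52.

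Differences between rats of the same age were not used by the rule. For each muscle a slope was therefore fitted to the 29 libraries, with 1 mean per age, on the log2 TMM-scaled CPM of Chrna1, so that the slope is the log2 change of a gene per log2 unit of Chrna1 among rats of equal age. In gastrocnemius 7 of the 28 members rose with Chrna1 at an adjusted p under 0.05 in edgeR's quasi-likelihood test, against 3.82% of the 14806 genes tested, and none fell, against 5.06%. They were Fst (slope 0.38 ± 0.06), Sec1 (0.50 ± 0.10), Dclk1 (0.48 ± 0.12), Col19a1 (0.60 ± 0.15), Adap2 (0.41 ± 0.11), Tnnt2 (0.49 ± 0.16) and ENSRNOG00000054989 (0.41 ± 0.10), the last named after its values were seen. The adjusted p was 0.000632 for Fst, 0.00161 for Sec1, 0.00919 for Dclk1, 0.011 for Col19a1, 0.0171 for Adap2, 0.0475 for Tnnt2 and 0.0137 for ENSRNOG00000054989. Slopes were positive for 23 of the 28, against 50.8% of all genes, with a median of 0.22 beside 0.00 over all genes. Cdkn1c (-0.01 ± 0.08), Mir675 (0.08 ± 0.11) and Gstt4 (-0.24 ± 0.27) did not pass.

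The count changed most without rat 47. Then 3 members passed, which were Fst, Sec1 and ENSRNOG00000009258, and Col19a1, Dclk1, Adap2, Tnnt2 and ENSRNOG00000054989 did not, while the share of all genes called in either direction went from 8.87% to 5.88%. The slopes of these 5 genes changed less than their calls, and the lowest over the 29 fits that each left out 1 rat was 0.49 for Col19a1, 0.41 for Dclk1, 0.36 for Adap2, 0.39 for Tnnt2 and 0.35 for ENSRNOG00000054989. Leaving out any other single rat gave 5 to 9. Dclk1 was also lost without rat 20 and Adap2 without rat 15, and Tnnt2 was lost in 19 of the 29 fits. Among the 18-month libraries alone 1 member passed (Fst), where 1.68% of all genes did. With Musk in place of Chrna1 1 passed (Col19a1), where 0.0811% of all genes did, and the median slope of the members was 0.37. The slope of Fst stayed between 0.35 and 0.44 whichever rat was left out, with an adjusted p of at most 0.00419 in edgeR, and that of Sec1 between 0.45 and 0.55 with an adjusted p of at most 0.0184. Both genes and Chrna1 were read from the same library, and with the log2 library total added to the fit 6 members passed.

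**Figure D4:**
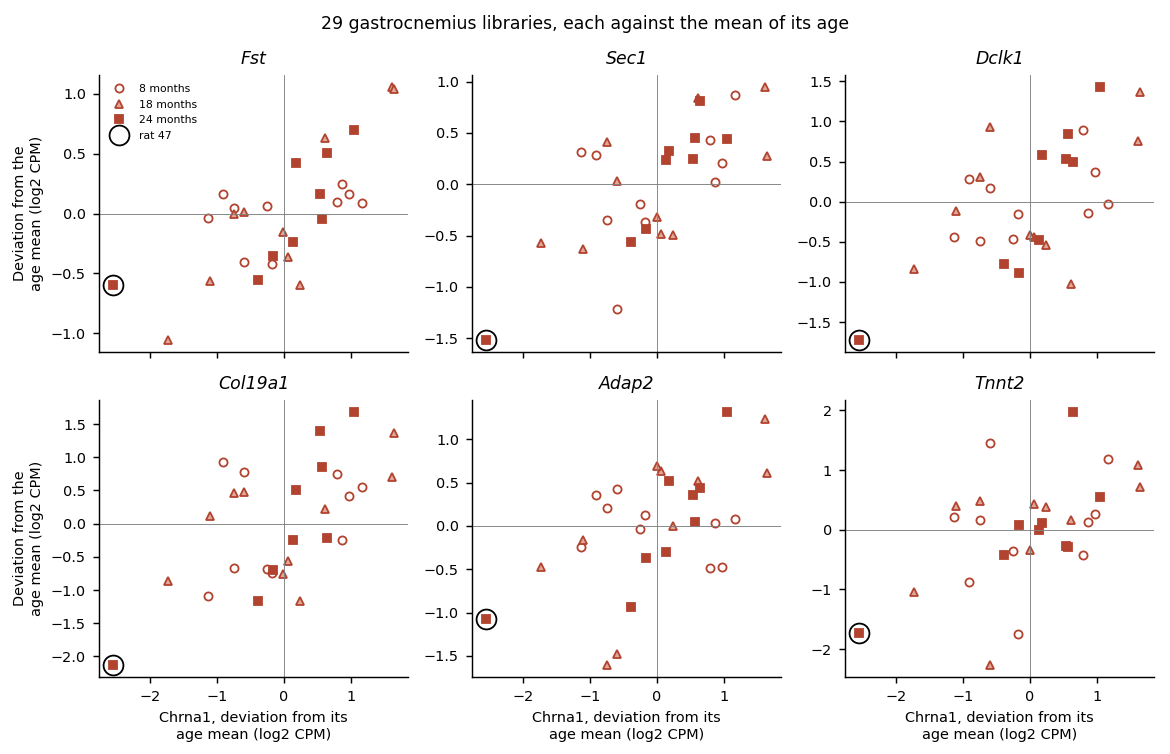
For the 6 members with a symbol that rose with Chrna1 in gastrocnemius, the deviation of each of 29 libraries from the mean of its age (log2 CPM) against that of Chrna1, with a shape per age and rat 47 ringed. Rat 47 lies at the lower left of each panel, and Fst and Sec1 keep an adjusted p of at most 0.0184 when any 1 rat is left out.

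In triceps 2 members rose with Chrna1, ENSRNOG00000026087 (1.77 ± 0.46, adjusted p 0.0306 in edgeR) and Tnnt2 (0.92 ± 0.24, adjusted p 0.0347), against 2.03% of the 14185 genes tested. The high triceps libraries of these genes were those of rat 50 for ENSRNOG00000026087 and rat 42 for Tnnt2, and their Chrna1 counts of 406 and 696 were among the 3 highest in 24-month triceps. The count of rising members fell to 0 without rat 1 and without rat 45, to 1 without rat 11, 13, 42, 46 or 49, and to 0 among the 18-month libraries alone, where 0.0074% of all genes were called. ENSRNOG00000018780 did not pass, but it fell with Chrna1 in 9 of the 29 fits that each left out 1 rat. Fst (0.04 ± 0.12), Sec1 (0.05 ± 0.13), Dclk1 (0.00 ± 0.08), Col19a1 (-0.10 ± 0.17) and Adap2 (0.19 ± 0.08) did not pass in triceps, where Chrna1 itself was lower. Whether the slopes differ between the muscles was not tested.

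**Figure D5:**
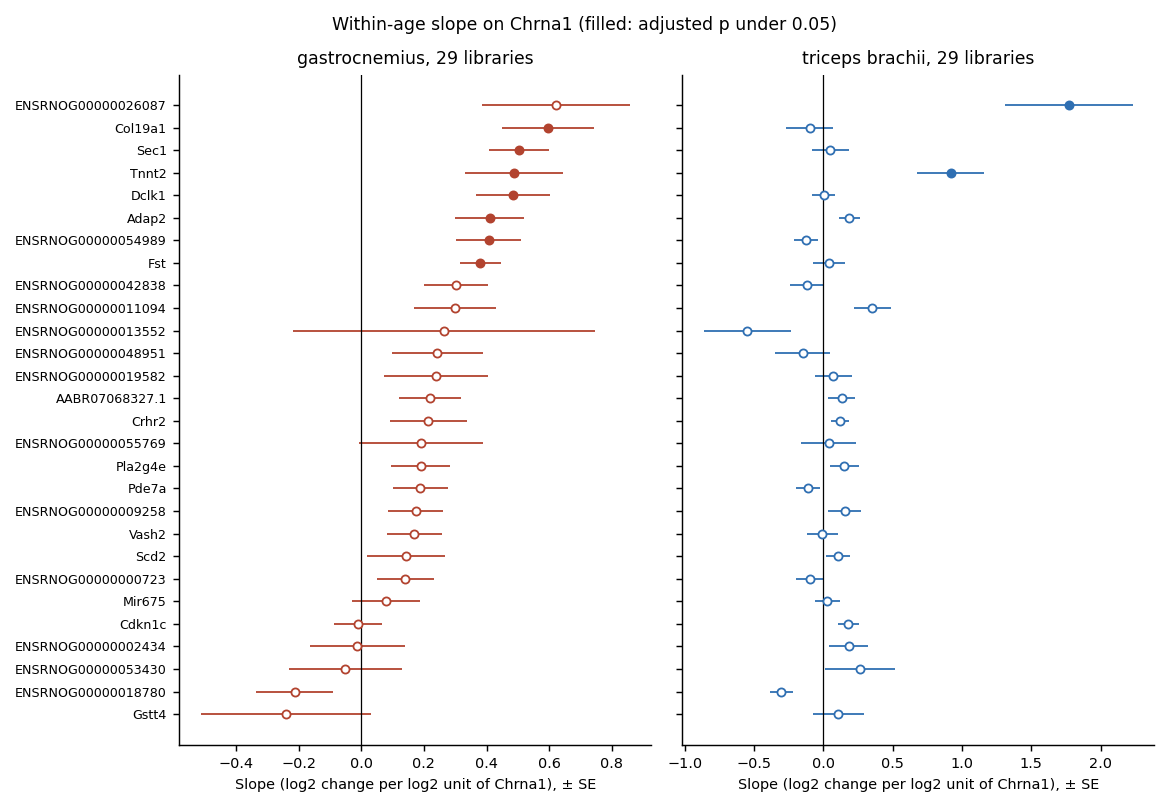
Slope of each of the 28 genes on Chrna1 within ages (log2 change per log2 unit), with the SE as a bar and filled points where the edgeR adjusted p is under 0.05, for 29 gastrocnemius (red) and 29 triceps (blue) libraries on separate scales. In all 7 points are filled in gastrocnemius and 2 in triceps, with Tnnt2 in both.

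Genes of several pathways were counted from lists, with only genes that had a symbol. The denervation, p53, NF-kappaB and polyamine lists held no member. Chrna1 had median counts of 137, 940.4 and 3288 in gastrocnemius at 8, 18 and 24 months and 75.0, 82.3 and 245 in triceps. Of all genes tested in gastrocnemius 3.41% were higher from 8 to 18 months and 22.6% from 8 to 24 months. Of 8 synapse and nerve contact genes, none of them a member, 6 rose in gastrocnemius from 8 to 18 months and 8 from 8 to 24 months, with medians of 1.83 and 2.75 log2 units. Of 8 genes of denervation transcription 3 rose by 18 months. Among 13 genes of TGF-beta, BMP and IGF ligands and their binding proteins, Fst being one, 8 rose by 18 months and none fell. It was 7 of 10 p53 family genes and targets, 8 of 11 NF-kappaB genes and 4 of 8 lipid genes with Scd2 among them. It was also 6 of 12 glutathione and redox genes with Gstt4 among them, and 1 of 4 polyamine genes, of which 1 fell. From 8 to 24 months in gastrocnemius 7 glutathione and redox genes were higher and 4 lower. Higher and lower genes numbered 7 and 1 for denervation, 9 and 1 each for TGF-beta and p53, and 9 and 2 for NF-kappaB. They numbered 6 and 1 for lipid and 3 and 1 for polyamines. Of all genes tested 21.6% were lower there. The symbols come from a table of genes that the study found to change in these same libraries, so these lists lean towards changed genes and their counts are not independent evidence. In triceps from 8 to 18 months no gene of any of the 8 lists passed, against 0.0468% of all genes in either direction. From 8 to 24 months in triceps 3 NF-kappaB genes rose, 2 each of the synapse, denervation and glutathione lists, 1 each of the p53, TGF-beta and lipid lists, and no polyamine gene. Of all genes tested 2.08% were higher there.

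Marker genes of other cell types moved with age in the same libraries. From 8 to 18 months in gastrocnemius 2 of 5 macrophage markers, 1 of 5 T cell markers and 1 of 7 fibroblast and matrix markers rose, and none of the 7 muscle fibre, 7 dividing cell, 3 myogenic cell, 4 endothelial, 3 fat, 2 mast cell or 2 red blood cell markers passed the test in either direction. Over all genes tested 3.41% were higher and 1.22% lower. No symbol was at hand for the 5 Schwann cell markers. The symbols of the other markers come from the same table of changed genes, so these lists lean towards changed genes too. The macrophage markers summed to 23.8 to 36.9 CPM at 8 months, 28.3 to 55.9 at 18 months and 42.6 to 85.6 at 24 months in gastrocnemius, and the fibroblast and matrix markers to 1129 to 1959, 834 to 2869 and 1838 to 4136. The dividing cell markers summed to 2.26 to 8.21 CPM, 3.15 to 14.3 and 7.98 to 19.6. By 24 months all 7 muscle fibre markers had fallen and all 5 macrophage, 7 fibroblast and matrix, 7 dividing cell and 3 myogenic cell markers had risen. Over the same ages 22.6% of all genes tested were higher and 21.6% lower. Of the T cell markers 4 had risen and 1 had fallen, 3 of 4 endothelial, 2 of 2 red blood cell and 1 of 3 fat markers had fallen, and neither mast cell marker passed. The myogenic cell markers summed to 23.7 to 58.5 CPM at 8 months, 34.4 to 126 at 18 months and 48.5 to 157 at 24 months. No listed marker was at 0 in a whole group. The part of these cells in the counts of the 28 members was not tested.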

How the data were processed

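Gene-level read counts were the authors' own, deposited as 1 matrix with a column for each of the 58 libraries. Per the labels, polyadenylated RNA was sequenced, reads were called with CASAVA 1.8, aligned with STAR 2.3.0e to Rnor_6.0 and counted with HTSeq. The methods describe a filter on mapping quality before counting. The strand setting and annotation release are not given in the sources used here, so a gene and an overlapping or antisense gene cannot be told apart. The deposited counts were not normalised.

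The 28 genes and all lists were chosen with earlier results of these data known. Named in full were the 12 members with a symbol and the highest 24-month gastrocnemius medians and the 2 without a symbol with the highest, and others by their place at a threshold. Fits used edgeR 4.0.16 in R 4.3.3 (TMM scaling, quasi-likelihood test, SE as the log2 fold change over the square root of F, Benjamini-Hochberg adjustment) on 14947 genes with 20 reads or more in at least 1 library, with 1 mean per muscle and age. Differences between the muscles had the rat as a block, since both libraries came from 1 animal (mean correlation of their deviations 0.29, 0.17 and 0.26 at 8, 18 and 24 months). Replicate numbers at different ages are different rats. Depth is given in the report, and more reads give smaller counting error. Alternatives were DESeq2 1.42.0, limma 3.58.1, other scalings, filters and covariates and leaving out each rat. The edgeR steps were tested on simulated data.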

Additional observations from a re-analysis of the deposited data

Results flagged for a closer look

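Libraries far from the rest of their group were found in 17 of 84 groups tested for 14 genes, by the gap to the nearest library against the range of the group. The thresholds flag about 1 in 20 groups by chance if values follow a normal distribution. The counts were not put on a log scale, so that rate need not hold here and 17 cannot be read as an excess. All 17 were the highest of their group. Values are normalised counts.

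Mir675 reached 66842 in 18-month gastrocnemius (rat 11, next 40092) and 78448 in 24-month gastrocnemius (rat 43, next 44146). Cdkn1c, the other imprinted gene, reached 666 in the 18-month gastrocnemius library of rat 11, next to 398. ENSRNOG00000026087 stood apart in 4 groups, with 1622 in 8-month gastrocnemius (rat 8, next 382), 11709 in 18-month gastrocnemius (rat 20, next 4455), 209.5 in 8-month triceps (rat 1, next 53.5) and 1375 in 24-month triceps (rat 50, next 47.8).

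Rat 9 was highest for several genes at 8 months, with Dclk1 at 353 in gastrocnemius and 343 in triceps, and, in triceps, Pde7a at 451 and Scd2 at 1815. Dclk1 was at 472 in the 24-month triceps of rat 50, and Pde7a at 593 in the 18-month triceps of rat 14. Crhr2 was at 693 in the 8-month gastrocnemius of rat 1. Tnnt2 was at 1336 in the 24-month gastrocnemius of rat 41 and at 165 in the 24-month triceps of rat 42, and Adap2 at 607 in the 24-month gastrocnemius of rat 46.

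The change with age differed between the muscles in 4 members from 8 to 18 months and in 23 from 8 to 24 months, by edgeR's test of the difference with the rat as a block. The genes were chosen for that difference, so these counts are a description.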

How the results depend on the processing

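The choice of genes gave 23 to 35 members when 1 rat was left out (21 to 27 shared). Of the 28 genes 12 were kept in all 29 such choices, and Mir675, Cdkn1c, Fst and Tnnt2 were each lost in 5 and Pde7a and Adap2 in 10. Lost most often were ENSRNOG00000055769, in 13, and ENSRNOG00000042838, in 12. The choice gave 29 with TMM scaling (28 shared), 37 with library totals (20 shared) and 38 with group means (12 shared). Without the 1 added to the medians, for the level and for the ratios, it gave 28, of which 27 were shared. In triceps from 8 to 18 months no member passed under any of the 7 alternatives or in any of the 29 fits without 1 rat. Gastrocnemius slopes on Chrna1, called for 7 members, were called for 4 with a replicate block, 1 with Musk in place of Chrna1, 1 among 18-month libraries only, and 3 (without rat 47) to 9 when 1 rat was left out. The share of all genes called was 8.87%, and 1.73%, 0.0811%, 1.68% and 5.88% (without rat 47) in these fits. The other 6 alternatives gave 6 to 9. Triceps slopes, called for 2, both rising, were called for 1 with limma voom (ENSRNOG00000018780, falling, with neither rising gene), 0 with Musk, 0 among 18-month libraries only, and 0 to 3 without 1 rat, where each count of 3 had 2 rising and ENSRNOG00000018780 falling. Of the comparisons the rule used, 18 to 24 months in gastrocnemius went from 10 to 17 with library totals, 8 to 24 months in triceps from 1 to 3 with library totals and to 2 without rat 47 (an alternative chosen after seeing the data), and the contrast of both muscles over 8 to 24 months from 23 to 14 with no animal block. In gastrocnemius over 8 to 24 months, library totals shifted the median gene (log2) from 0.02 to 0.36, and changes are reported relative to TMM scaling. The cause was not tested. Same-numbered libraries at 8 and 18 months came from different rats. Their correlations were -0.03 to 0.65 in gastrocnemius (mean 0.21, 7 of 10 pairs above 0.1) and -0.20 to 0.34 in triceps (mean 0.09, 5 of 10). The 2 muscles of 1 rat at 18 months gave -0.21 to 0.50 (mean 0.17, 7 of 10). These values therefore cannot decide whether same-numbered libraries have something in common. The replicate block moved no other count by more than 1.5 times. No direction reversed.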

Other observations

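Members without a symbol held patterns of their own, named here after their values were seen. ENSRNOG00000018780 was lower in gastrocnemius than in triceps at each age, with medians of 267, 538 and 427 normalised counts at 8, 18 and 24 months against 1079, 1468 and 1223. Its gastrocnemius median was highest at 18 months. ENSRNOG00000009258 was also highest at 18 months in gastrocnemius, with medians of 42.6, 92.5 and 67.0.

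ENSRNOG00000013552 ranged widely between rats of the same age at 8 months. Its highest gastrocnemius library there, that of rat 8, held 16365 counts and its lowest 30.6. The 3 rats with the highest gastrocnemius counts at 8 months, rats 7, 8 and 9, also had the 3 highest triceps counts, at 3008, 1258 and 676.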
